A study of Mus musculus with 2 samples.

Results

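Neu_CA1_2 is a cluster of 348 cells among the 8477 cells of the deposited table, 1 of 5 clusters that the study named as CA1 glutamatergic neurons. Its members were taken by the deposited cluster name, and the authors' clusters were defined from the expression of the same cells, so cells of the cluster are set beside other cells here as a description and not as a test. The cells came from the ventral hippocampus (vHPC) of adult male mice on a mixed C57BL/6J x C57BL/6N background, stated in the labels to be 11 to 12 weeks old. WT mice carry the valine form of adenylyl cyclase 2 (ADCY2-V151). L151 mice are homozygous for the leucine form (ADCY2-L151), which was introduced into the germline gene Adcy2 by CRISPR/Cas9, so that all cells of the animal carry it and no promoter or Cre line restricts it. Tissue was dissociated with papain and captured with the droplet-based 10x Genomics 3′ chemistry, and after the study excluded 1 of 2 samples per genotype there was 1 WT library with 4055 cells and 22049587 unique molecular identifiers (UMIs) and 1 L151 library with 4422 cells and 22276085 UMIs. A UMI marks 1 captured RNA molecule. With 1 library per genotype no test between genotypes was possible, intervals cover counting error only, and genotype cannot be told apart from the dissection and capture of each library.

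CA1 pyramidal neurons are the excitatory output cells of the hippocampus. They use glutamate, receive their main input from CA3, and in the ventral part project to the amygdala, hypothalamus and prefrontal cortex. Genes named as their markers are Wfs1 and Slc17a7. Wfs1 encodes wolframin, a membrane protein of the endoplasmic reticulum. Slc17a7 encodes the vesicular glutamate transporter VGLUT1 and marks glutamatergic neurons in general, not CA1 alone. Mitochondrial transcripts are made and kept inside mitochondria, outside the nucleus, and neurons are rich in mitochondria because synaptic signaling consumes much ATP. The share of a cell's UMIs that comes from mitochondrial genes is therefore a common quality measure of single-cell libraries, beside the number of UMIs and of genes.

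The table gives for each cell its UMIs, its genes with at least 1 UMI, its mitochondrial percentage, a doublet score and its cluster. Counts per gene were not analysed here, so the name CA1 could not be checked against Wfs1 and Slc17a7, and the cluster is called Neu_CA1_2 as deposited. Whether these droplets held whole cells, nuclei or fragments was not tested. The libraries shared 3 cell barcodes, none of them in Neu_CA1_2 (0 of 348 cells).

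The cluster was a large part of CA1 by cells and a small part by RNA. Neu_CA1_2 held 266 L151 cells and 82 WT cells. This was 42.1% of the L151 CA1 cells (95% exact binomial interval 38.2 to 46.0%) and 19.0% of the WT CA1 cells (15.4 to 23.1%). Of all neurons it was 15.3% in L151 (13.7 to 17.1%) and 5.94% in WT (4.75 to 7.32%). In UMIs the cluster was 7.97% of the RNA counted in L151 CA1 cells and 3.13% of that in WT CA1 cells. Of everything counted in the library it was 0.758% and 0.281%. The L151/WT ratio of the share of the library was 2.97 (2.31 to 3.86).

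Neu_CA1_2 had the fewest genes per cell of the 33 clusters and also the lowest median mitochondrial percentage. The number of genes ranged from 326 to 1351 in WT with a median of 498 (order-statistic 95% interval 460 to 528), and from 321 to 1986 in L151 with a median of 414 (398 to 436). UMIs ranged from 395 to 2277 in WT with a median of 649 (601 to 709), and from 391 to 3750 in L151 with a median of 532 (507 to 569). The ranges of the libraries overlapped almost fully, while the intervals of the medians did not overlap for either measure. The 25th and 75th percentiles were 357.25 and 526 genes in L151 and 399 and 578.5 genes in WT.

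The distribution leaned against the lower limit of the deposited table, from which the authors had removed droplets with fewer than 320 genes. Within 321 to 340 genes there were 37 L151 cells and 10 WT cells, which is 13.9% and 12.2% of the cluster. Cells under 400 genes made up 44.7% of the cluster in L151 (119 cells) and 25.6% in WT (21 cells). At the upper end the cluster thinned out quickly, with 1 L151 cell and 3 WT cells at or above 1000 genes. The deepest cell was from L151, with 1986 genes, 3750 UMIs and 12.9% mitochondrial UMIs, and the 3 WT cells had 1002, 1203 and 1351 genes. The table does not show how many droplets of this kind lay below the limit.

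Mitochondrial content was low in most cells of the cluster but not in all of them. The median was 0.470% in L151 (0.332 to 0.636%), ranging from 0 to 22.6%. In WT it was 1.13% (0.564 to 1.98%), ranging from 0 to 24.97%. In molecules the median was 2 mitochondrial UMIs for L151 cells and 5.5 for WT cells, and 54 L151 cells and 9 WT cells had none, which is 20.3% (15.6 to 25.6%) and 11.0% (5.14 to 19.8%). The 75th percentile was 3.14% in L151 and 5.48% in WT, and the pooled RNA of the cluster was 3.70% mitochondrial in L151 and 4.54% in WT. The pooled values lay above the medians because a minority of cells held most of the mitochondrial UMIs. Cells over 2% held 93.4% of them in L151 and 93.9% in WT.

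**Figure D1:**
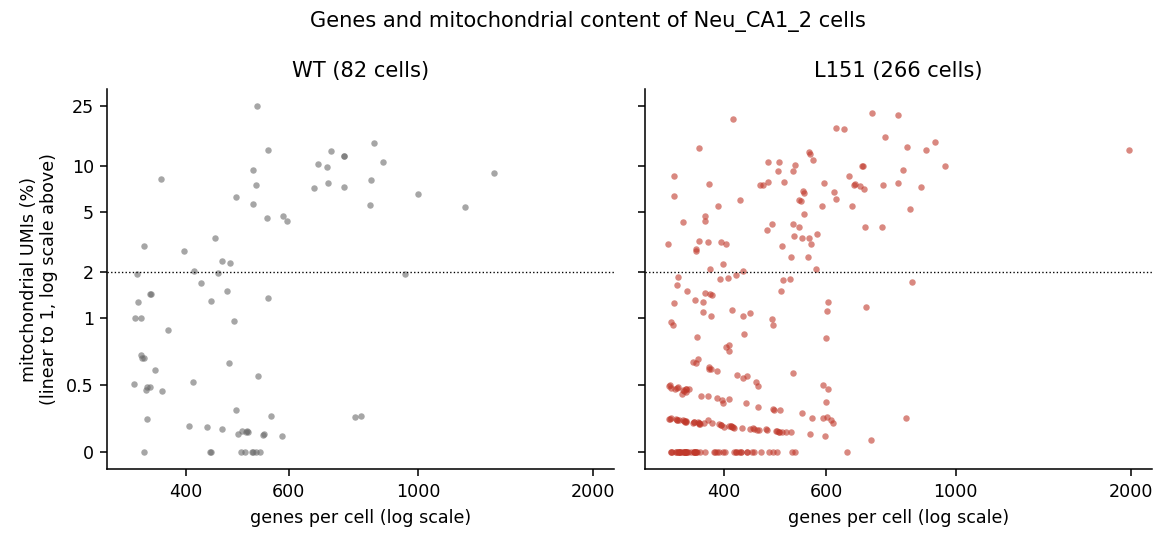
Each point is a Neu_CA1_2 cell, with its number of genes (x, log scale) and the percentage of its UMIs from mitochondrial genes (y, linear to 1 and logarithmic above), in the WT library (left, 82 cells) and the L151 library (right, 266 cells), and the dotted line stands at 2%. Cells under 500 genes sit mostly below the line and cells with more genes mostly above it, and the rows of points near 0 are cells with 0, 1 or 2 mitochondrial UMIs.

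Cells of the cluster with more genes tended to hold a higher share of mitochondrial UMIs. Across cells Spearman's rho of genes and mitochondrial percentage was 0.435 in L151 (n = 266 cells) and 0.361 in WT (n = 82 cells). These are descriptions of cells of 1 library each, which share its preparation. UMIs and genes were nearly the same ordering, with rho of 0.987 and 0.980. Among cells of 321 to 399 genes the median mitochondrial percentage was 0.248% in L151 (0.222 to 0.454%) and 0.725% in WT (0.484 to 1.43%). Among cells of 500 or more genes it was 3.97% in L151 (2.52 to 6.67%) and 5.04% in WT (0.267 to 7.51%). The WT cells of this depth were mixed, and 17 of 40 had at most 2%.

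A maximum of 2% mitochondrial UMIs, a round value set for counting cells low in mitochondrial RNA, divided the cluster into 2 parts. At or below it were 187 L151 cells and 51 WT cells, or 70.3% (64.4 to 75.7%) and 62.2% (50.8 to 72.7%) of the cluster. Their median gene number was 390 in L151 and 454 in WT. The cells above 2% had 548 and 595 genes. Both parts were larger in L151, with L151/WT ratios of shares of the library of 3.36 (2.46 to 4.68) for the low part and 2.34 (1.53 to 3.66) for the high part, whose intervals overlap.

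The libraries were also compared within ranges of the number of genes, since L151 cells of the cluster had fewer genes than WT cells. Within 321 to 399 genes the intervals of the medians given above did not overlap. In the range of 400 to 499 genes the median was 0.253% in L151 (0.176 to 0.547%, 68 cells) and 0.662% in WT (0.172 to 1.98%, 21 cells), with intervals that overlap. In this range 82.4% of the L151 cells had at most 2% (71.2 to 90.5%), and 76.2% of the WT cells (52.8 to 91.8%). Within 321 to 399 genes these shares were 86.6% (79.1 to 92.1%) and 85.7% (63.7 to 96.95%). Between 500 and 599 genes the order was the opposite, with a median of 3.02% in L151 (1.502 to 4.16%, 40 cells) and 0.211% in WT (0.122 to 4.70%, 22 cells), and intervals that overlap. At this depth 16 of 40 L151 cells had at most 2% (24.9 to 56.7%), as had 14 of 22 from WT (40.7 to 82.8%). The libraries' intervals for the share of cells at or below 2% overlapped in each of these 3 ranges, and a difference was not tested. The lower overall median of L151 did not hold at each depth.

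All 348 cells of Neu_CA1_2 had a deposited doublet score of 0, which is the lowest value in the table. This was not particular to the cluster. The authors had removed putative doublets with scran before deposit, and no source used here states the scale of the score. Of the cells in other clusters, all 93 with 321 to 399 genes had a score of 0 as well, as had 425 of 427 with 400 to 599 genes and 481 of 550 with 600 to 806 genes. Among cells with 2000 or more genes 96 of 4299 had a score of 0. The fewest genes of any cell with a score above 0 were 552. The clusters Endothelial_2, OPCs and GABA_2 were at 0 throughout, like Neu_CA1_2. A score of 0 was thus common to most shallow cells of the table, and doublets in the cluster were not tested in another way.

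For the comparison with other neurons and glia at similar depth, cells with 330 to 806 genes were used, the range between the 5th and 95th percentile of Neu_CA1_2. The range held 312 cells of the cluster (18 lay below and 18 above it) and 1063 cells of 19 other clusters. The cluster made up 28.9% of the L151 cells in the range (25.8 to 32.1%, 241 of 835 cells) and 13.1% of the WT cells (10.4 to 16.3%, 71 of 540 cells). Most other cells were glia, with 428 cells in L151 and 351 in WT. Glia here are astrocytes, oligodendrocytes and their progenitors, microglia and ependymal cells. Other neurons were few at this depth, with 80 L151 cells and 25 WT cells.

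The share of cells that belonged to the cluster was highest at the shallow end. Between 321 and 349 genes Neu_CA1_2 held 57 of 68 L151 cells, or 83.8% (72.9 to 91.6%), and 16 of 29 WT cells, or 55.2% (35.7 to 73.6%). Between 350 and 399 genes it held 62 of 101 L151 cells, or 61.4% (51.2 to 70.9%), but 5 of 35 WT cells, or 14.3% (4.81 to 30.3%). Between 600 and 799 genes it held 9.06% (6.15 to 12.8%) and 3.95% (1.91 to 7.15%). The intervals of the libraries did not overlap in the range of 350 to 399 genes, and in the other ranges they overlapped, some of them narrowly.

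**Figure D2:**
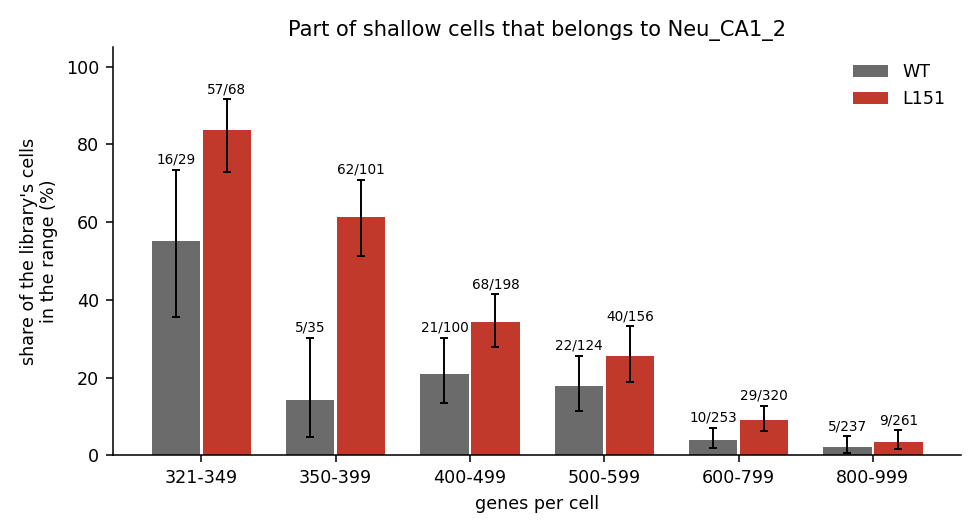
Share of each library's cells (y, percent) that belongs to Neu_CA1_2 in 6 ranges of the number of genes (x), for WT (grey) and L151 (red), with black lines for 95% exact binomial intervals and the cell numbers above them. The shares fall from 83.8% of L151 and 55.2% of WT cells at 321 to 349 genes to 3.45% and 2.11% at 800 to 999 genes.

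Within 330 to 806 genes most cells of other clusters carried more mitochondrial RNA than most cells of Neu_CA1_2. The median of Neu_CA1_2 was 0.454% in L151 (0.257 to 0.600%) and 0.725% in WT (0.464 to 1.498%). Other neurons had 8.94% in L151 (7.59 to 10.7%) and 6.64% in WT (2.20 to 9.48%), and glia 8.86% (8 to 9.82%) and 7.92% (7.19 to 9.13%). The intervals of Neu_CA1_2 lay below those of other neurons and glia in both libraries. Medians of vascular, meningeal and macrophage cells were between, with 4.29% (3.49 to 4.72%) and 4.34% (3.38 to 5.20%).

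The cluster also had the lowest median when clusters with at least 10 cells in the range were taken singly. Of the 12 other clusters with at least 10 cells in the range, medians over both libraries ran from 1.63% to 14.6%. Microglia_1, the larger cluster of the resident immune cells, was lowest with 1.63% in 10 cells (0.406 to 4.53%). Its interval overlapped that of Neu_CA1_2 over both libraries, which had 0.483% (0.390 to 0.662%). At or below 2% were 6 of the 10 Microglia_1 cells, and the median over all 494 cells of Microglia_1 was 1.31%. Endothelial_2 followed with 3.55% in 106 cells. The highest was Oligodendrocytes_4, a cluster of the myelin-forming cells, with 14.6% in 39 cells. Of the other CA1 clusters Neu_CA1_4 had the most cells in the range, with a median of 7.64% in 23 cells. At or below 2% were 0 of these 23, where 3 cells would make 13.04% and the exact interval reaches 14.8%. Cells of Neu_CA1_4 in the range were deeper than those of Neu_CA1_2, with a median of 675 against 434 genes. Cells of Neu_CA1_2 with 600 to 806 genes had a median of 7.28%, as given below.

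**Figure D3:**
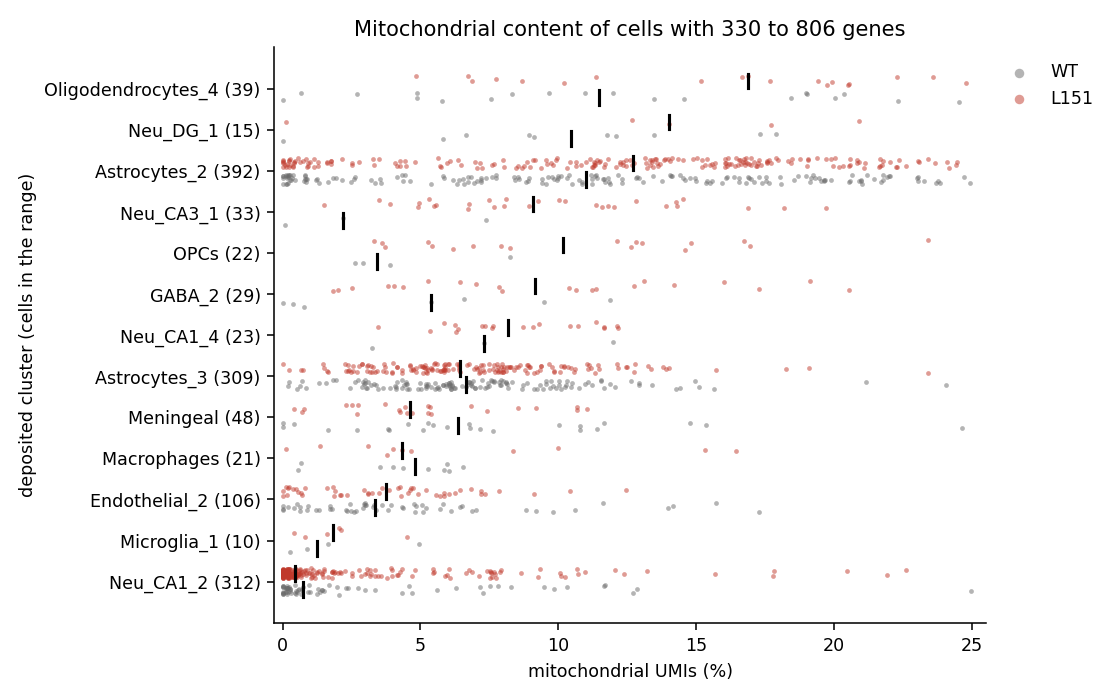
Mitochondrial percentage (x) of cells with 330 to 806 genes in Neu_CA1_2 and in each other cluster with at least 10 such cells (y, cells in brackets), with a point per cell for WT (grey, lower row) and L151 (red, upper row) and a black bar at the median of each library. Neu_CA1_2 lies at the bottom with medians of 0.454% in L151 and 0.725% in WT, and its tail reaches into the range of the other clusters.

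The range is wide, and other neurons in it were deeper than Neu_CA1_2, with median gene numbers of 674.5 in L151 and 701 in WT against 417 and 488. Narrower ranges were therefore compared over both libraries. Between 400 and 499 genes the median was 0.313% in 89 cells of Neu_CA1_2 (0.184 to 0.569%), 9.25% in 13 other neurons (2.01 to 19.1%) and 5.80% in 140 glia (5.18 to 6.49%). Between 600 and 806 genes it was 7.28% in 39 cells of the cluster (3.95 to 8.66%), 8.09% in 79 other neurons (7.31 to 10.2%) and 10.3% in 422 glia (9.56 to 11.1%). In cells of 500 to 599 genes, Neu_CA1_2 had a median of 2.30% (0.501 to 3.97%, 62 cells), a value that describes neither library, since the medians of L151 and WT were 3.02% and 0.211%. The intervals of the cluster and of other neurons were apart at 400 to 499 genes and overlapped at 500 to 599 and at 600 to 806 genes. Of the 13 other neurons with 400 to 499 genes 12 were from L151, and the 1 WT cell had 0% mitochondrial UMIs, so the separation in this range was one of the L151 library and could not be seen in WT.

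Cells that were both shallow and low in mitochondrial RNA also occurred outside the cluster. In the range of 330 to 806 genes 368 cells of all clusters had at most 2%, and 220 of them belonged to Neu_CA1_2. Of the cells in the range, 71.8% of Neu_CA1_2 were of this kind in L151 (65.6 to 77.4%) and 66.2% in WT (54.0 to 77.0%), against 10.7% (7.98 to 14.1%) and 13.7% (10.3 to 17.7%) of glia. Among other neurons it was 4 of 80 cells in L151 (1.38 to 12.3%) and 7 of 25 in WT (12.1 to 49.4%). Glia in the range had more genes than the cluster, with medians of 604 in L151 and 627 in WT. Under 500 genes, 85.0% of the cluster in L151 and 81.0% in WT had at most 2%. For glia these shares were 13.9% (8.17 to 21.6%) and 30.9% (20.2 to 43.3%). For vascular, meningeal and macrophage cells they were 32.7% (20.3 to 47.1%) and 35.8% (23.1 to 50.2%). Of the cells with 330 to 806 genes and at most 2%, Astrocytes_2 held 68 and Endothelial_2 held 31, the most after Neu_CA1_2.

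The libraries differed in these cells inside the cluster and not detectably outside it. Shallow cells with at most 2% mitochondrial UMIs numbered 173 in L151 and 47 in WT within Neu_CA1_2, which is an L151/WT ratio of shares of the library of 3.38 (2.43 to 4.76). In all other clusters together they numbered 71 and 77, a ratio of 0.846 (0.604 to 1.18). Glia contributed 46 and 48 of them, vascular, meningeal and macrophage cells 21 and 22, and other neurons 4 and 7. Few of these cells outside the cluster were thus neurons. The intervals of the ratios inside and outside the cluster do not overlap. This was not particular to low-mitochondrial cells. In the same gene range, cells over 2% had ratios of 2.60 (1.61 to 4.33) inside and 1.22 (1.07 to 1.40) outside, also without overlap.

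The number of UMIs per gene, a joint measure of both counts, was compared next. It depends on depth, and mitochondrial transcripts raise it because a few genes carry many UMIs, so mitochondrial UMIs were left out. Mitochondrial genes with at least 1 UMI stayed in the number of genes, which lowers the value somewhat in cells that hold them. Within 330 to 806 genes the median was lower in Neu_CA1_2 than in the deeper other neurons, with 1.28 (1.27 to 1.29) against 1.35 (1.32 to 1.37) in L151 and 1.27 (1.26 to 1.31) against 1.34 (1.315 to 1.40) in WT, and the intervals were apart. Narrower ranges were taken over both libraries. In cells of 400 to 499 genes the median was 1.28 in Neu_CA1_2 (1.27 to 1.29) and 1.27 in other neurons (1.22 to 1.32), while glia had 1.37 (1.36 to 1.39). In cells of 600 to 806 genes it was 1.36 (1.34 to 1.41), 1.36 (1.35 to 1.37) and 1.56 (1.54 to 1.58). The intervals of the cluster and other neurons overlapped in both narrow ranges, and those of glia lay above them. Over all cells of the cluster the intervals of the libraries overlapped, with medians of 1.28 in L151 (1.27 to 1.29) and 1.28 in WT (1.26 to 1.31).

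Shallow neurons outside the cluster were also more frequent in the L151 library. With 330 to 806 genes the other neuronal clusters held 80 L151 and 25 WT cells, which gives a ratio of shares of 2.93 (1.85 to 4.80). In the same range the ratio for Neu_CA1_2 was 3.11 (2.38 to 4.12). The ratio for other neurons depended on the chosen range and was 1.89 (1.44 to 2.51) when all other neurons under 1000 genes were taken. For glia in 330 to 806 genes it was 1.12 (0.969 to 1.29). The shallow neurons came from few clusters. Neu_CA3_1, pyramidal neurons of CA3, had 30 L151 and 3 WT cells in the range, GABA_2, inhibitory neurons, had 22 and 7, and Neu_CA1_4 had 20 and 3. Neu_CA3_1 was more frequent in L151 outside the range as well, with a ratio of 1.73 (1.44 to 2.08), beside 9.17 (2.85 to 46.96) within it. Without Neu_CA3_1 the ratio for shallow other neurons was 2.08 (1.24 to 3.61). Neu_DG_1, granule neurons of the dentate gyrus, went the other way with 5 and 10 cells, a ratio of 0.459 (0.123 to 1.47) whose interval includes 1. Of these shallow other neurons 4 L151 and 7 WT cells had at most 2%, as given above.

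The ratio was also taken by number of genes. Between 321 and 499 genes it was 4.08 (2.91 to 5.85) for Neu_CA1_2 with 187 and 42 cells, 11.9 (1.79 to 506.6) for other neurons with 13 and 1 cells, and 1.55 (1.139 to 2.13) for glia with 115 and 68 cells. Between 500 and 599 genes the ratio for Neu_CA1_2 was 1.67 (0.967 to 2.95), whose interval includes 1 and reaches just into that of the shallowest range. For other neurons it was 10.1 (1.47 to 434.2) there, and since both shallow ranges held 1 WT cell of other neurons, their ratios cannot be ranked. Between 600 and 799 genes it was 2.66 (1.26 to 6.12) for the cluster, 2.17 (1.29 to 3.75) for other neurons and 1.005 (0.825 to 1.23) for glia. At or above 1000 genes, where Neu_CA1_2 had 4 cells in all, it was 0.985 (0.910 to 1.06) for other neurons and 0.918 (0.857 to 0.983) for glia. Within each of the ranges up to 799 genes the intervals of Neu_CA1_2 and other neurons overlapped. Between 321 and 499 genes the intervals of Neu_CA1_2, other neurons and glia all lay above 1, and the interval of the cluster lay above that of glia.

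**Figure D4:**
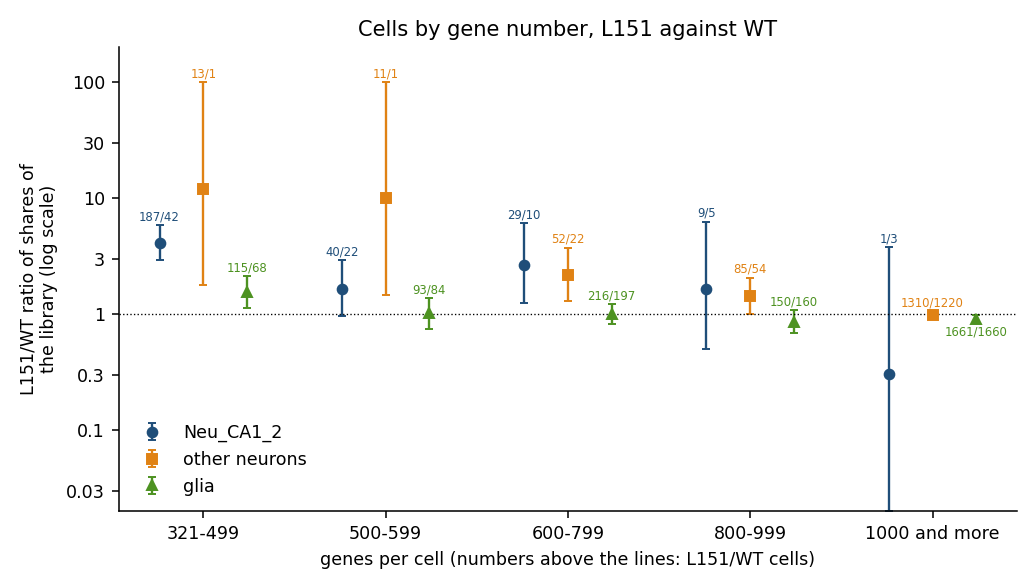
L151/WT ratio of shares of the library (y, log scale) for cells in 5 ranges of the number of genes (x), for Neu_CA1_2 (blue circles), other neurons (orange squares) and glia (green triangles), with 95% counting intervals, which are cut off at 100 and 0.02, and cell numbers (L151/WT) beside them. Neu_CA1_2 stands at 4.08 and other neurons at 11.9 in the shallowest range, and other neurons and glia stand at 0.985 and 0.918 at 1000 genes and more.

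Low mitochondrial content in CA1 was not limited to shallow cells. Neu_CA1_1, the largest CA1 cluster, had a median of 16.0% but included 48 WT cells and 17 L151 cells with at most 2%. These cells were deep, with medians of 1908 genes in WT (range 655 to 3123) and 1738 in L151 (860 to 2899). The low cells of Neu_CA1_2 ranged from 326 to 950 genes in WT and from 322 to 842 in L151, so the depth of both sets overlapped only between 655 and 950 genes in WT and not at all in L151. The ratio of shares was 0.325 (0.175 to 0.575) for the low cells of Neu_CA1_1, against 3.36 for those of Neu_CA1_2.

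Over all CA1 clusters 206 L151 cells and 102 WT cells had at most 2%, which is 32.6% of L151 CA1 cells (28.9 to 36.4%) and 23.7% of WT CA1 cells (19.7 to 28.0%). Under 1000 genes there were 190 L151 and 56 WT cells among them, a ratio of shares of the library of 3.11 (2.30 to 4.27). Cells with 1000 genes or more numbered 16 and 46, a ratio of 0.319 (0.169 to 0.574). The median gene number of all CA1 cells with at most 2% was 399 in L151 and 789 in WT. The low-mitochondrial CA1 cells of the L151 library were therefore more numerous and, for the most part, shallow, and those of the WT library were divided between shallow and deep cells. The depth ranges and the set of Neu_CA1_1 cells were chosen after the values were seen.

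**Figure D5:**
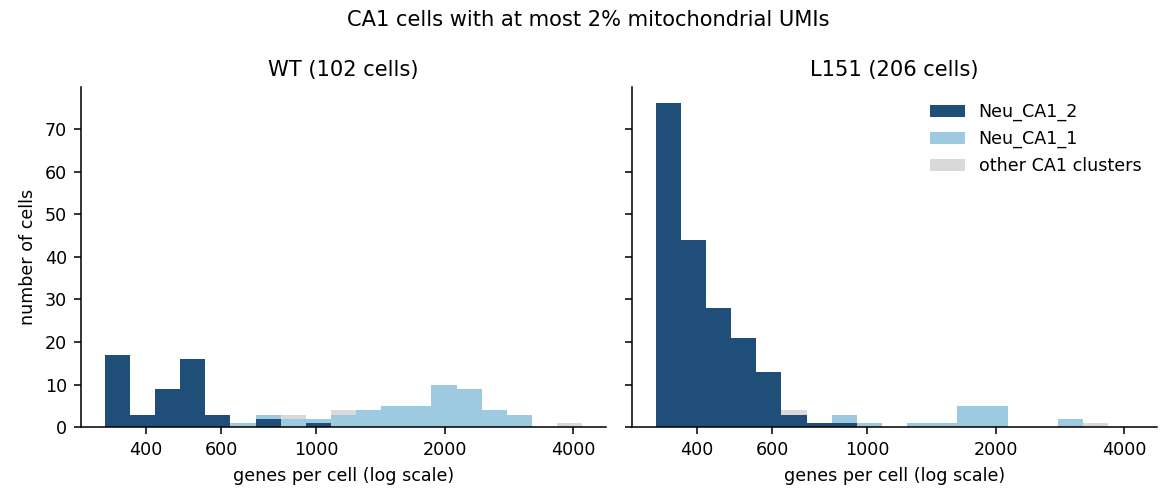
Number of CA1 cells with at most 2% mitochondrial UMIs (y) by number of genes (x, log scale) in the WT library (left, 102 cells) and the L151 library (right, 206 cells), stacked by cluster with Neu_CA1_2 in dark blue, Neu_CA1_1 in light blue and other CA1 clusters in grey. In WT 46 cells have 1000 genes or more, and in L151 16 do, while 190 lie below.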

How the data were processed

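The authors dissociated the vHPC of WT and L151 mice and captured single cells on 10x Genomics v3 chips. Per the submitters' processing notes, Cell Ranger 3.0.2 and mm10 were used. The deposited UMI counts are totals over all genes of a cell and are not normalized. The deposited percent values are the authors' share of mitochondrial UMIs in a cell, and multiplied by the UMI count they gave a whole number, to within 1e-06, in 8477 of 8477 cells. The deposited doublet score was made by the authors with scran, and its scale is not stated. Before deposit the authors left out 1 sample of each genotype, putative doublets, blood cells, and droplets with under 320 or over 5000 genes or over 25% mitochondrial content. They clustered the cells in Seurat 3.1.3 with 25 principal components and resolution 1.2. No cell of the table had over 14989 UMIs.

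All cells were used, and 0 columns were left without a sample. The cluster and the comparisons were chosen with earlier results of these data known. Shares have Clopper-Pearson 95% intervals and medians have order-statistic intervals. For a ratio of shares, the exact binomial interval was taken for the fraction of cells from L151 and converted to a ratio. Intervals cover counting error only. A count of 0 was given with the share that 3 cells would make. No test was made. Genes were named as background only (Adcy2 and the cluster's markers). Calculations were made in Python 3.11.15 (scipy 1.17.1, numpy 2.4.6, pandas 2.3.3) and plots in matplotlib 3.10.9. The intervals of ratios and medians were tested on simulated independent values. That does not cover the smallest groups of cells, or cells that share the preparation of a library. Alternatives were other gene ranges, matching on UMIs, other mitochondrial maximums, denominators and minimums of genes, and means. Ranges by gene number, the ratios for shallow cells of other classes and the comparison with Neu_CA1_1 were added after the data were seen.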

Additional observations from a re-analysis of the deposited data

Results flagged for a closer look

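A pair of L151/WT contrasts differed between sets of cells, and the difference within each pair was not tested, since each genotype has 1 library. Among cells of 330 to 806 genes with at most 2% mitochondrial UMIs, the ratio of shares of the library was 3.38 (2.43 to 4.76) within Neu_CA1_2 and 0.846 (0.604 to 1.18) in all other clusters, where the interval includes 1. For cells over 2% in this gene range the ratios were 2.60 (1.61 to 4.33) and 1.22 (1.07 to 1.40). Among CA1 cells with at most 2% at any depth, the ratio was 3.36 (2.46 to 4.68) in Neu_CA1_2 and 0.325 (0.175 to 0.575) in Neu_CA1_1.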

How the results depend on the processing

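No paired analysis was possible because each genotype has 1 library, and no replicate could be left out. Of 107 alternative values, 59 stayed within the counting interval of the reported value and 48 lay outside it. A reversal was looked for only in L151/WT ratios of shares whose interval left out 1, and 0 were found. The order of medians was not part of that count. It changed for genes per cell with at least 500 genes and for UMIs per gene without mitochondrial UMIs. For the mitochondrial percentage of other neurons it changed with the widest gene range. These values are given below. The cause of these shifts was not tested.

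The ratio of shares of 2.97 became 2.21 of CA1 cells, 2.29 of cells under 1000 genes and 1.90 among cells of at least 500 genes. With at least 500 genes, the cluster's medians in WT and L151 were 874.5 and 822 UMIs, 585.5 and 598 genes, 5.04 and 3.97% mitochondrial UMIs, and 1.41 and 1.40 UMIs per gene, where the gene numbers are themselves limited by the minimum. Means in place of medians were 755 and 635 UMIs, 534 and 465 genes, 3.32 and 2.51%, and 1.37 and 1.33 UMIs per gene. Without mitochondrial UMIs the medians of UMIs per gene were 1.276 in WT and 1.280 in L151. The L151 mitochondrial median was 0.248% within 321 to 399 genes and 0.253% within 400 to 499 genes.

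With the lowest to highest gene number of the cluster as the range, other neurons had 14.4% mitochondrial UMIs in WT and 12.7% in L151 and median doublet scores of 0.620 and 0.749, L151 glia had 7.42%, the cluster was 4.29 and 12.0% of the cells, and the ratio for shallow other neurons was 1.002. With the interquartile range, which left 1 WT cell of other neurons at 0%, glia had 5.65 and 6.41%, the cluster was 20.2 and 40.1% of the cells, and the ratio for other neurons was 16.5. The ratio of 2.93 for shallow other neurons thus held for the chosen range and not for the widest one. Matched on UMIs, glia had 6.49 and 7.16%, and the cluster was 34.4% of L151 cells.

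With the cluster's 90th percentile of 8.67% as the mitochondrial maximum, 88.7 and 92.9% of the cluster, 60.0 and 47.5% of other neurons and 53.8 and 49.3% of glia lay at or below it. With 1% it was 62.7% of the cluster and 7.24% of glia in L151.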
